A study of Mus musculus with 2 samples.

Results

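The Schlafen genes Slfn1, Slfn2, Slfn4, Slfn5, Slfn8 and Slfn9 were followed in 2 single-cell RNA libraries of the inflamed mouse colon. They are 6 of the 32228 genes counted. The family was chosen by the UMI counts of Slfn5, which were far lower in neutrophils of one library, so every value of the contrast between the libraries is a description and not a test. UMIs, unique molecular identifiers, count captured RNA molecules. Both libraries held viable CD45+ cells of the colonic lamina propria (LP) of C57BL/6 mice aged 8 to 10 weeks per the labels, and each pooled 5 mice given 2.5% dextran sodium sulfate (DSS) in the drinking water for 7 or 8 days. DSS injures the colonic epithelium and is a standard model of colitis. One pool was WT and the other was labelled Ring1AKO, a knockout of Ring1, which encodes the Ring1a ubiquitin ligase of the polycomb repressive complex PRC1. The study compared littermates and describes the knockout as a whole-body one. Each condition had 1 library, so no difference between them could be tested, and each interval below covers counting error only.

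Schlafen genes are known as interferon-inducible genes of immune cells, and the family was first described as regulating thymocyte growth. The mouse genes fall into a short form (Slfn1, Slfn2), an intermediate form (Slfn4, with Slfn3) and a long form that carries a helicase-like region (Slfn5, Slfn8, Slfn9). Type I interferon acts through a transcription factor complex that binds the interferon-stimulated response element of target promoters. Neutrophils, monocytes and macrophages are the main phagocytes of the colitic LP.

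A cell was a barcode with at least 500 UMIs, at least 200 genes and less than 5% mitochondrial UMIs, which left 6262 WT cells and 8474 cells labelled Ring1AKO with medians of 6108.5 and 4825 UMIs. Cells were placed in 9 classes by marker genes, and 4707 and 6646 of them fell into a class. Neutrophil-like cells numbered 258 and 317, monocyte-like cells 822 and 242, C1q macrophage-like cells 305 and 311, dendritic-like cells 127 and 129, B-like cells 1239 and 3720, plasma-like cells 708 and 733, CD4 T-like cells 609 and 542, CD8 T-like cells 515 and 575 and NK-like cells 124 and 77. The 10 leading genes of each class held between 2 and 6 of its own markers, on which the classes were gated. Those of the CD4 T-like cells held 2 of their own, and those of the CD8 T-like cells 2 of their own and 2 NK markers. Those of the plasma-like cells held 1 monocyte marker. The libraries shared 15 barcodes among kept cells. The targeted gene was not depleted in the library labelled Ring1AKO. Ring1 had 829 UMIs in WT cells and 824 in the others, 13.3 and 11.9 CPM (a gene's UMIs per 1000000 UMIs of the cells), and a log2 ratio of -0.17 (95% interval -0.31 to -0.03). The 3′ tags may lie outside the deleted stretch, and that was not tested. The library is therefore called by its label throughout.

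All 6 members lie in 1 cluster on chromosome 11. By their gene identifiers in the GENCODE mouse release 21 annotation (GRCm38), the cluster spans 335.4 kb from Slfn5 to Slfn14. Slfn5 lies at chr11:82951349-82964840 on the forward strand and is overlapped by the antisense gene Slfn5os, which had 0 UMIs in the 9 classes. Slfn9 (chr11:82978390-82991830) and Slfn8 (chr11:83002158-83020810) lie on the reverse strand, and Slfn2 (chr11:83065112-83070678), Slfn1 (chr11:83116849-83122670) and Slfn4 (chr11:83175186-83190216) on the forward strand.

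The 250 bases before each RefSeq start site (GRCm38.p6) were searched on both strands for the core of the interferon-stimulated response element, GAAANNGAAA, and for the gamma-activated site core, TTCNNNGAA. Matches of the first were found before RefSeq start sites of the 3 long-form genes Slfn5, Slfn8 and Slfn9, and in none of the windows of Slfn1, Slfn2 and Slfn4. The Slfn5 match lies before its RefSeq start but inside the GENCODE spans of Slfn5 and Slfn5os, so it is not upstream of the annotated gene. Of all 32851 windows, 2.98% held that motif and 7.02% held the second, which no member's window held. Neither Slfn3 nor Slfn14 was searched, and the sequence after the RefSeq start of Slfn1 was not found in its GENCODE transcripts. The windows around the matches are shown because, among the members, only the long-form genes held one. The matched letters are in capitals. None of these windows overlaps an annotated exon. They lie at chr11:82951937-82951966 for Slfn5 (forward strand), chr11:83020839-83020868 for Slfn8 and chr11:82991856-82991885 for Slfn9 (reverse strand).
Slfn5: ccttcaaagtGAAAAAGAAAaaaaaaaaag
Slfn8: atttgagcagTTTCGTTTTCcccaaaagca
Slfn9: atccgagcagTTTCGTTTTCccaaaaacaa
The matches of Slfn8 and Slfn9 are the same 10 letters. The match of Slfn5 has the other orientation relative to its gene and runs into a stretch of A. Since each window is written in the direction of its gene, the GAAA form of all 3 lies on the forward strand of the chromosome. A match of letters says nothing of binding, and a window without one says only that these letters are not in it.

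Near-identical sequence limits how the reads of some members can be told apart. Of the 91-base words in the last 500 bases of the Slfn8 transcripts, 9.25% also occur in the pseudogene Slfn10-ps, which was not among the counted genes, and 2.35% occur in Slfn9. The shares for Slfn9 were 9.59% and 1.38%. Counts of Slfn8 and Slfn9 are uncertain to that extent, while the last 500 bases of Slfn1, Slfn2, Slfn4 and Slfn5 shared no such word with another Schlafen transcript.

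The members were used by different cells, and the order of the classes is given first within the WT library. Slfn2, whose loss in mice is known to break the quiescence of T cells and monocytes, had the most UMIs of the family, 31748 over the classes and both libraries. Its level was 1548 CPM in monocyte-like, 1130 CPM in C1q macrophage-like and 1016 CPM in neutrophil-like cells, each apart from the next by its interval. It then dropped to 280 CPM in CD4 T-like cells, followed by CD8 T-like, NK-like, dendritic-like and B-like cells, whose neighbours overlapped, and was lowest in plasma-like cells at 75.9 CPM. Slfn1, known for holding back T-cell growth, was highest in neutrophil-like cells at 133 CPM. It stood at 49.9 CPM in monocyte-like cells and at 33.1 and 32.2 CPM in the CD4 and CD8 T-like cells, which did not differ beyond their intervals. No Slfn1 UMI was found in NK-like cells, where 3 UMIs would be 3.85 CPM in the WT library.

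Slfn4 was the member most limited to 1 class. This gene is known from myeloid cells, and its WT level was 820 CPM in neutrophil-like cells against 34.0 CPM in monocyte-like cells and 8.68 CPM or less in the other 7 classes. Cell-free barcodes, those with fewer than 100 UMIs, held Slfn4 at 69.4 CPM in the WT library. At the share of cell-free RNA estimated from the immunoglobulin transcript Igha, 28.9 Slfn4 UMIs would be expected in the WT C1q macrophage-like cells, where 18 were seen, and 39.6 in the CD4 T-like cells, where 18 were seen. Both counts were under the estimate, which was thus too high for these 2 classes and cannot say whether their Slfn4 was background. At least 2 plasma markers were held by 28.2% of the WT C1q macrophage-like and 22.7% of the WT CD4 T-like cells. The part of such cells in the estimate was not tested.

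Slfn5, an interferon-inducible gene known as a transcriptional co-repressor, was highest in WT monocyte-like cells at 177 CPM. Neutrophil-like, dendritic-like and C1q macrophage-like cells followed at 98.6, 91.6 and 78.1 CPM and did not differ from their neighbours in that order. The level was 22.9 CPM in CD4 T-like, 21.2 in B-like, 10.6 in CD8 T-like and 4.25 in plasma-like cells, and NK-like cells had 1 UMI. Slfn8, long form and also expressed in lymphocytes, led in monocyte-like cells at 76.5 CPM and lay between 16.3 and 35.2 CPM in 6 classes, from C1q macrophage-like to CD8 T-like cells. Slfn9 was low in every class, with at most 7.18 CPM, in CD4 T-like cells, and its neighbours in the order all overlapped.

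**Figure D1:**
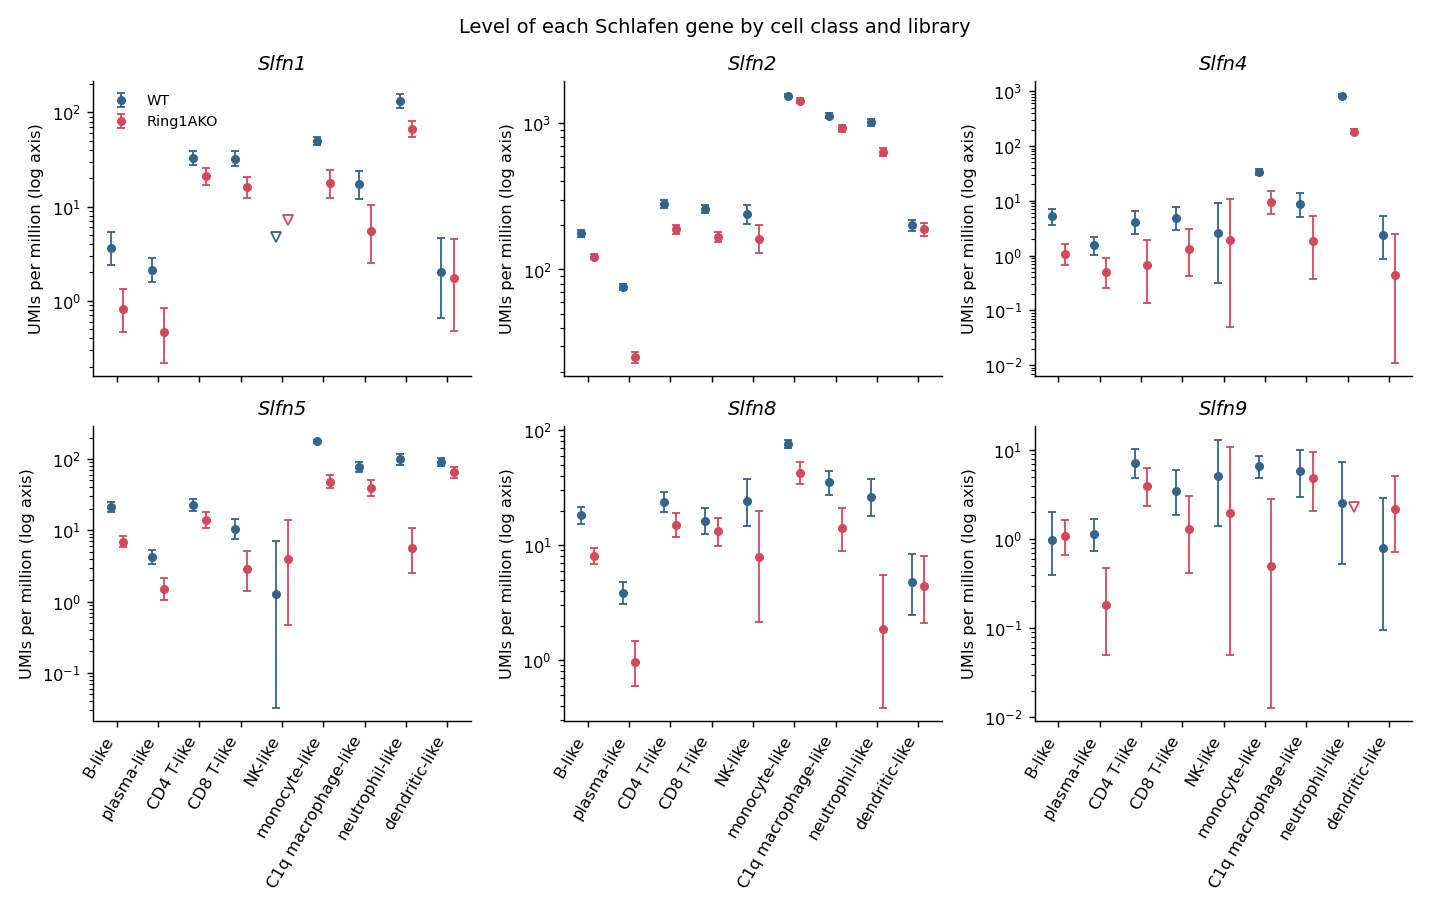
Level of each member in CPM (log axis) in 9 marker-gated classes, with WT in blue and the library labelled Ring1AKO in red. Points are summed UMIs of a class over its summed total, bars are exact 95% Poisson intervals, and open triangles mark the upper limit where no UMI was counted. Slfn4 stands at 820 and 183 CPM in neutrophil-like cells and below 40 CPM elsewhere, and the Slfn5 point of neutrophil-like cells drops from 98.6 to 5.60 CPM.

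The comparison of the library labelled Ring1AKO with WT asked how the Schlafen genes differed in each class. Of 54 member and class pairs, 45 had at least 20 UMIs over both libraries. The level was below WT in 44 of the 45, at least 2-fold lower in 25 and at least 2-fold higher in 0. The interval lay wholly below 0 in 39 pairs and wholly above 0 in none, and it held 0 in the other 6. The share of all genes with an interval wholly below 0 was not computed, so how common this was in these classes is not known. When each ratio was set against the median ratio of all genes in its class, which lay between -0.35 and -0.03, 23 pairs were at least 2-fold lower and 41 were below 0. These medians were all below 0, so a level below WT was common among all genes too. Most of the 25 lower pairs had fewer than 20 UMIs in the library labelled Ring1AKO and passed the limit mainly through their WT counts. Examples are Slfn9 in monocyte-like cells (52 and 1 UMIs), Slfn8 in neutrophil-like cells (31 and 3), Slfn1 in plasma-like cells (45 and 10) and Slfn5 in CD8 T-like cells (39 and 11). The count of 25 thus partly follows from the limit. Of all genes with at least 20 UMIs, the share at least 2-fold lower is given beside the members' count of each class, since it shows how common such a ratio was there.

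In neutrophil-like cells 3 of 5 members were at least 2-fold lower, where 10.2% of all genes were. Slfn5, by which the family was chosen, was among the 3, as was Slfn8 with 31 and 3 UMIs. In monocyte-like cells 4 of 6 members were at least 2-fold lower, beside 10.8% of all genes. The C1q macrophage-like cells had 3 of 6 members beside 4.0% of all genes, and the dendritic-like cells 0 of 3 beside 7.82%. Among lymphocytes the counts were 4 of 6 in B-like cells (8.24% of all genes), 6 of 6 in plasma-like cells (10.9%), 1 of 6 in CD4 T-like cells (4.1%), 3 of 5 in CD8 T-like cells (5.37%) and 1 of 2 in NK-like cells (6.75%). The ratios nearest to the 2-fold limit were those of Slfn1 in CD8 T-like cells, 2.01-fold lower, and in neutrophil-like cells, 1.99-fold lower.

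**Figure D2:**
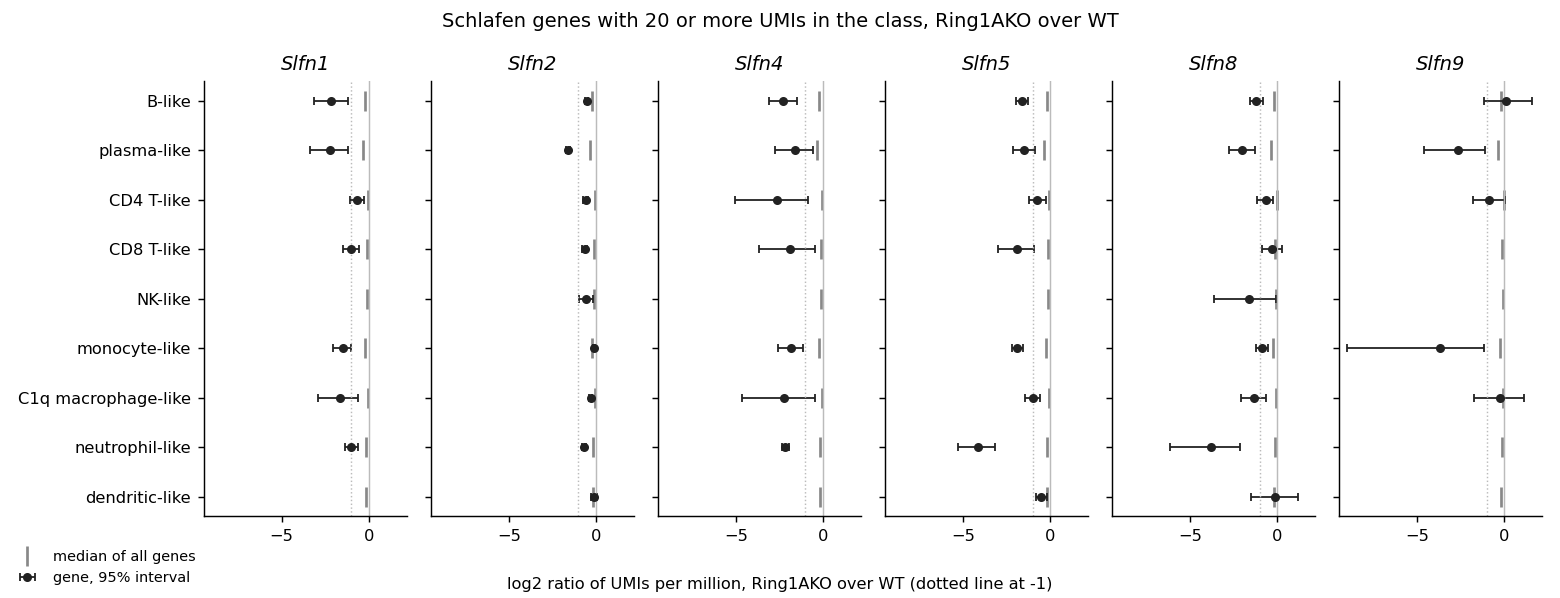
Log2 ratio of CPM, the library labelled Ring1AKO over WT, for each member in each class with at least 20 UMIs. Points are ratios with exact 95% counting intervals, grey ticks are the median ratio of all genes in the class and the dotted line marks a 2-fold lower level. Slfn5 and Slfn8 reach -4.14 and -3.82 in neutrophil-like cells, while the Slfn2 points lie between -0.68 and -0.09 outside the plasma-like cells.

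Of the members Slfn2 had the median ratio over classes nearest to 0, -0.55. It was at least 2-fold lower in 1 of its 9 classes, the plasma-like cells (75.9 against 25.2 CPM). In monocyte-like cells, where it was most abundant, its level was 1548 CPM in WT and 1425 CPM in the library labelled Ring1AKO, a log2 ratio of -0.12 (-0.18 to -0.06). That ratio lay above the median of all genes of the class, and the centred value was 0.11. In neutrophil-like cells Slfn2 stood at 1016 and 633 CPM, with a ratio of -0.68 (-0.81 to -0.56). Slfn1, also short form, was further from WT, below it in all 7 classes with enough UMIs and at least 2-fold lower in 5 of them. Of these 5, only the monocyte-like cells stayed so (-1.62) without cells holding at least 3 markers of another class. The CD8 T-like cells were then at -0.75 (-1.29 to -0.22). The B-like (3 and 4 UMIs), plasma-like (2 and 1) and C1q macrophage-like cells (8 and 1) had too few UMIs. Over all cells Slfn1 went from 133 to 66.6 CPM in neutrophil-like cells (-0.99, -1.36 to -0.63) and from 49.9 to 17.7 CPM in monocyte-like cells (-1.50, -2.04 to -0.996).

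Slfn4 was lower in neutrophil-like and monocyte-like cells, where its counts stood well above the cell-free estimate. In neutrophil-like cells 965 UMIs were counted in WT and 294 in the library labelled Ring1AKO, that is 820 and 183 CPM, with a ratio of -2.16 (-2.36 to -1.97). The monocyte-like cells held 269 and 19 UMIs, 34.0 and 9.61 CPM (-1.82, -2.58 to -1.15). The level among cell-free barcodes moved with these values, from 69.4 CPM in WT to 16.8 CPM. In the other 5 classes with enough UMIs the WT count was 37 or fewer and the ratio also below -1.5. In the CD4 T-like and C1q macrophage-like cells, as said above, and in the CD8 T-like cells (18 and 5 UMIs seen, 13.3 and 6.89 expected from cell-free RNA) these counts were near or under the cell-free estimate, and for B-like and plasma-like cells, whose own Igha bars the estimate, it was not made.

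The lowest ratios and the widest spread among classes were those of the long-form genes Slfn5, Slfn8 and Slfn9. The lowest value of Slfn5 is the one that chose the family. Those of Slfn8 (neutrophil-like cells, 31 and 3 UMIs) and Slfn9 (monocyte-like cells, 52 and 1 UMIs) rest on few UMIs and have wide intervals. No trait of the long form can be read from them. The Slfn5 ratio ran from -4.14 in neutrophil-like cells to -0.49 in dendritic-like cells. In monocyte-like cells 1402 UMIs were counted in WT and 95 in the library labelled Ring1AKO, at 177 and 48.0 CPM, a ratio of -1.88 (-2.20 to -1.58). The dendritic-like cells had 91.6 and 65.1 CPM (-0.49, -0.80 to -0.19). Without those holding at least 3 markers of another class their ratio was -0.85 (-1.26 to -0.44). At least 2 plasma markers were held by 55.9% and 53.5% of them. Without these, a setting chosen after seeing the data, the ratio was -1.03 (-1.58 to -0.49, 97 and 43 UMIs). Over all cells of each class, the dendritic-like cells led the order of Slfn5 levels in the library labelled Ring1AKO, with an interval that overlapped that of the monocyte-like cells. The neutrophil-like cells, which followed the monocyte-like cells in WT, stood there in place 6 with an interval that overlapped those of their neighbours. B-like cells had 21.2 and 6.93 CPM (-1.61, -1.96 to -1.27) and CD8 T-like cells 10.6 and 2.85 CPM (-1.89, -3.00 to -0.90).

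Slfn8 was below WT in all 9 classes, from -3.82 in neutrophil-like cells to -0.13 in dendritic-like cells. It had 605 and 84 UMIs in monocyte-like cells, 76.5 and 42.5 CPM (-0.85, -1.20 to -0.52), and 129 and 156 UMIs in B-like cells, 18.2 and 8.01 CPM (-1.19, -1.53 to -0.84). In CD8 T-like cells the levels of 16.3 and 13.2 CPM did not differ beyond the interval (-0.30, -0.87 to 0.26). Slfn9 had 1 ratio above 0, in B-like cells with 7 and 21 UMIs (0.12, -1.16 to 1.60). In monocyte-like cells it had 52 UMIs in WT and 1 in the library labelled Ring1AKO, a ratio of -3.70 with an interval of -9.03 to -1.16.

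Among lymphocytes the members differed by class. In plasma-like cells, which secrete antibody, Slfn1 had 45 and 10 UMIs, Slfn8 81 and 21 and Slfn9 24 and 4, with ratios of -2.22, -1.997 and -2.63. Without cells that also held at least 3 markers of another class, Slfn1 had 2 and 1 UMIs, Slfn9 14 and 2 and Slfn5 6 and 5, too few to count, and Slfn8 had 21 and 5 (-1.67). This class had the lowest Slfn2 level of the 9 in both libraries and also the deepest cells, with medians of 27585.5 and 31097 UMIs. In CD4 T-like cells 5 members lay closer to WT, with Slfn1 at 143 and 95 UMIs (-0.66, -1.05 to -0.27), Slfn5 at 99 and 63 (-0.72), Slfn8 at 103 and 68 (-0.67) and Slfn9 at 31 and 18 (-0.85, -1.78 to 0.03). Slfn4 was the exception, with 18 and 3 UMIs, both under its cell-free estimate. Slfn1 had 119 and 62 UMIs in CD8 T-like cells and 26 and 16 in B-like cells, 3.68 and 0.822 CPM in the latter. Without cells holding at least 3 markers of another class the B-like counts were 3 and 4. NK-like cells held 186 and 83 UMIs of Slfn2 (-0.55) and 19 and 4 of Slfn8 (-1.64, -3.65 to -0.05), and fewer than 6 of each other member.

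In WT the monocyte-like cells held the most Slfn5 molecules of the 9 classes. A Slfn5 UMI was found in 387 of 822 WT cells (47.1%) and in 47 of 242 cells labelled Ring1AKO (19.4%), at medians of 9877 and 7873 UMIs, and thinned to 1000 UMIs the shares were 12.7% (10.5 to 15.2%) and 3.33% (1.45 to 6.46%). The intervals of the ratio overlapped between shallow and deep cells, at -1.80 (-2.30 to -1.33) below the pooled median of 9485.5 UMIs and -1.82 (-2.24 to -1.42) above it. Slfn2 by contrast was found in 98.9% and 96.7% of the cells. Plasma markers summed to 793 and 1520 CPM in these cells and C1q macrophage markers to 1625 and 4000 CPM, and their part in the ratios was not tested. Cell-free RNA, estimated at 4.43% and 9.22% of the UMIs, would give 9.98 of the 1402 and 1.84 of the 95 Slfn5 UMIs.

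The neutrophil-like cells, in which Slfn5 led to the choice of the family, are given in more detail. Slfn5 had 116 UMIs in 46 of 258 WT cells and 9 UMIs in 7 of 317 cells labelled Ring1AKO. The levels were 98.6 CPM (81.5 to 118) and 5.60 CPM (2.56 to 10.6), a log2 ratio of -4.14 (-5.30 to -3.16) or 17.6-fold lower. Of 6015 genes with at least 20 UMIs in these cells, 7 had a lower ratio. No WT cell held more than 11 Slfn5 UMIs. Slfn8 went from 31 to 3 UMIs, 26.3 to 1.87 CPM, a ratio of -3.82 (-6.17 to -2.14), and Slfn9 from 3 to 0 UMIs, too few for a ratio.

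**Figure D3:**
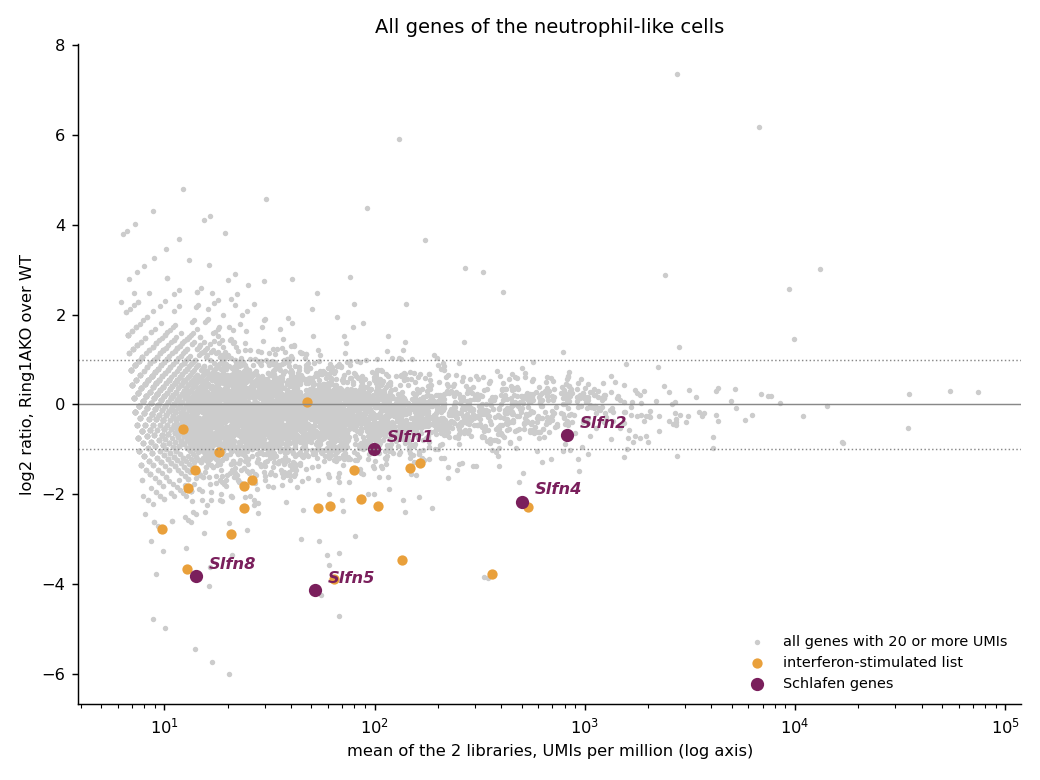
Log2 ratio of the library labelled Ring1AKO over WT against the mean level in CPM (log axis) for the 6015 genes with at least 20 UMIs in neutrophil-like cells. Purple points are the members, orange points the interferon-stimulated list and grey points all genes, with dotted lines at 2-fold. Slfn5 and Slfn8 lie among the lowest ratios, Slfn4 at -2.16, and Slfn1 and Slfn2 above the 2-fold line.

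The share of cells with a UMI was compared after each cell was thinned to 1000 UMIs, which left out 28 and 34 shallower cells. A Slfn5 UMI was then found in 18 of 230 WT cells (7.83%, 4.70 to 12.1%) and in 2 of 283 cells labelled Ring1AKO (0.707%, 0.0857 to 2.53%). Without thinning the shares were 17.8% and 2.21% at medians of 4072.5 and 4467 UMIs. NK-like cells, taken as a background after their values were seen, had a Slfn5 UMI in 0.806% of WT cells and 2.60% of cells labelled Ring1AKO without thinning, at medians of 5421 and 5236 UMIs. With 1 of 124 and 2 of 77 NK-like cells (intervals 0.0204 to 4.41% and 0.316 to 9.07%), this background is too loosely known to say whether the 2.21% lay above it. For Slfn4 the thinned shares were 45.2% (38.7 to 51.9%) and 17.0% (12.8 to 21.9%), beside 0.486% and 0.0541% in B-like cells.

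Free RNA and other cell types differed between the 2 sets of neutrophil-like cells. Plasma markers summed to 632 CPM in WT and 4707 CPM in the library labelled Ring1AKO, with 1 of 8 at 0 in WT, B markers to 60.3 and 265 CPM, and monocyte markers to 338 and 436 CPM. From the Igha level, cell-free RNA was estimated at 3.85% and 27.4% of their UMIs. That share would give 4.44 of the 9 Slfn5 UMIs, 2.496 of the 3 Slfn8 UMIs and 7.39 of the 294 Slfn4 UMIs in the library labelled Ring1AKO, and 1.29 of the 116 Slfn5 UMIs in WT. After this profile was subtracted the Slfn5 ratio was -4.70. The estimate exceeded the WT Slfn4 counts of 2 other classes, as said above, and may be too high here too. Of the neutrophil-like cells 20.5% in WT and 24.6% in the library labelled Ring1AKO held at least 2 plasma markers.

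Slfn5 was lower in shallow and in deep neutrophil-like cells. The UMIs split here by depth and by markers are those by which Slfn5 chose the family. A lower level was therefore built into them, and the splits do not replicate it. They show only how the chosen difference was spread over these cells. In cells below the pooled median of 4201 UMIs, Slfn5 had 51 and 6 UMIs (-2.96, -4.47 to -1.74), and in the deeper cells 65 and 3 UMIs (-5.07, -7.39 to -3.46). The Slfn4 ratios of the shallower and deeper cells were -2.15 and -2.10. At the edge of the gate, cells with 3 of the 8 neutrophil markers held 0 Slfn5 UMIs in 12 WT cells and 1 in 33 cells labelled Ring1AKO, and cells with 2, just outside it, held 0 in 16 and 1 in 16. These edge cells held too few UMIs for a ratio, while cells with all 8 markers, 71 and 85 in number, held 41 and 2.

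Genes of neutrophil maturation differed between the libraries in the same cells. Of 15 such genes 9 had at least 20 UMIs, and 5 of these were at least 2-fold higher in the library labelled Ring1AKO, beside 5.45% of all genes. They were the granule genes Ngp, from 69 to 770 UMIs (3.03), Mmp8 (2.496) and Lcn2 (1.27), and also Chil3 (1.53) and Retnlg (1.46), which were among the markers of the gates, as were Cxcr2 and Csf3r. The chemokine receptor Cxcr2 had a ratio of -0.43 and the colony-stimulating factor receptor Csf3r of -0.65. The part of cell maturity in the Schlafen values was not tested.

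Cells that carried markers of a second class weighed on the other classes. Without cells that held at least 3 markers of another class, 31 pairs had at least 20 UMIs, 12 were at least 2-fold lower and 30 were below 0. In neutrophil-like cells, which lost 8.91% and 13.2% of their cells, 3 of 5 members, Slfn5 included, were at least 2-fold lower, beside 11.1% of all genes. The Slfn5 ratio was -4.21 (-5.56 to -3.12). In monocyte-like cells, which lost 53.0% and 69.0%, 3 of 5 members were at least 2-fold lower, beside 16.7% of all genes. There Slfn5 was at -2.003 (-2.64 to -1.43), Slfn4 at -2.13 (-4.03 to -0.73) and Slfn1 at -1.62 (-2.77 to -0.66). The plasma-like cells went from 6 of 6 to 1 of 2 (14.3% of all genes), with Slfn2 at -0.70, and the C1q macrophage-like cells from 3 of 6 to 0 of 2 (4.59%), with Slfn5 at -0.32 (-1.11 to 0.45). Of the lymphocytes, B-like cells had 3 of 5 (5.15%), CD8 T-like cells 1 of 4 (4.23%), CD4 T-like cells 1 of 5 (4.98%) and NK-like cells 0 of 1 (7.87%), and dendritic-like cells had 0 of 2 (7.74%). The 1 gene in CD4 T-like cells was Slfn9 (15 and 5 UMIs, -1.63), while Slfn4, the one lower in all cells of that class, had too few UMIs. Without cells that held at least 2 plasma markers, a setting chosen after seeing the data, 16 of 36 pairs were at least 2-fold lower. The share of all genes lower in that setting is not given by class, so how common such ratios were there is not known. Slfn9 then had 25 and 0 UMIs in monocyte-like cells. With the 0 set to the floor of 3 UMIs the level was 1.6-fold lower, a log2 ratio of -0.71 with an upper limit of -0.30.

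**Figure D4:**
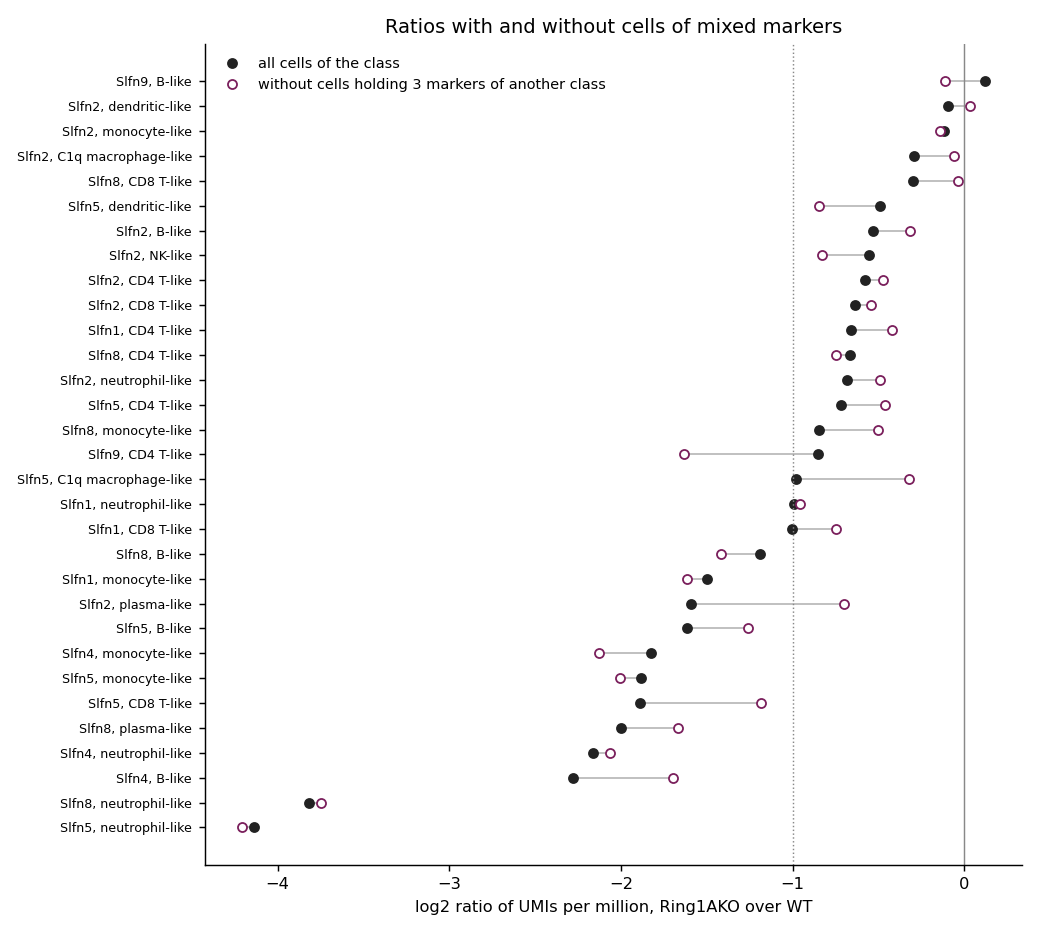
Log2 ratio of the library labelled Ring1AKO over WT for the 31 member and class pairs with at least 20 UMIs both in all cells of a class (filled) and without cells that held at least 3 markers of another class (open). The dotted line marks a 2-fold lower level. The neutrophil-like and monocyte-like ratios of Slfn5 and Slfn4 move little, and those of Slfn2 in plasma-like and Slfn5 in C1q macrophage-like cells move toward 0.

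Since the family is known to be interferon-inducible, 28 interferon-stimulated genes were set beside it. In neutrophil-like cells 20 of 22 with at least 20 UMIs were at least 2-fold lower in the library labelled Ring1AKO, beside 10.2% of all genes. The median log2 ratio of the 22 was -2.18, beside -0.15 for all genes. That of the 5 members was -2.16, but they include Slfn5, by which the family was chosen. The lowest ratios were those of Ifi204, a sensor of the PYHIN family (141 to 13 UMIs, -3.89), the ubiquitin-like modifier Isg15 (797 to 79 UMIs, -3.78) and Ifit1, which binds foreign RNA (28 to 3 UMIs, -3.67). Bst2, which tethers budding virus, was the gene of the list above 0 (55 and 78 UMIs, 0.05). In monocyte-like cells 21 of 27 were at least 2-fold lower (median -1.46), beside 10.8% of all genes. In C1q macrophage-like cells 12 of 26 were (-0.93), beside 4.0%. Once set against the median of all genes, 18 were lower in monocyte-like cells, beside 7.36% of all genes set against it likewise.

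Elsewhere the list counted 17 of 26 genes in B-like cells, beside 8.24% of all genes, and 13 of 26 in plasma-like cells, beside 10.9%. The counts were 7 of 24 in CD4 T-like (4.1%), 9 of 23 in CD8 T-like (5.37%) and 1 of 10 in NK-like cells (6.75%). Once set against the median of all genes, the B-like count was 13, beside 5.84% of all genes set against it likewise. In the dendritic-like cells no member was 2-fold lower over all cells of the class. Of the list 6 of 22 genes were lower there and 1 higher, with a median of -0.41, beside 7.82% and 2.31% of all genes. The lower genes there included Isg15 (198 to 57 UMIs, -1.66), and the nucleotide kinase gene Cmpk2 was higher (4 to 23 UMIs, 2.66).

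**Figure D5:**
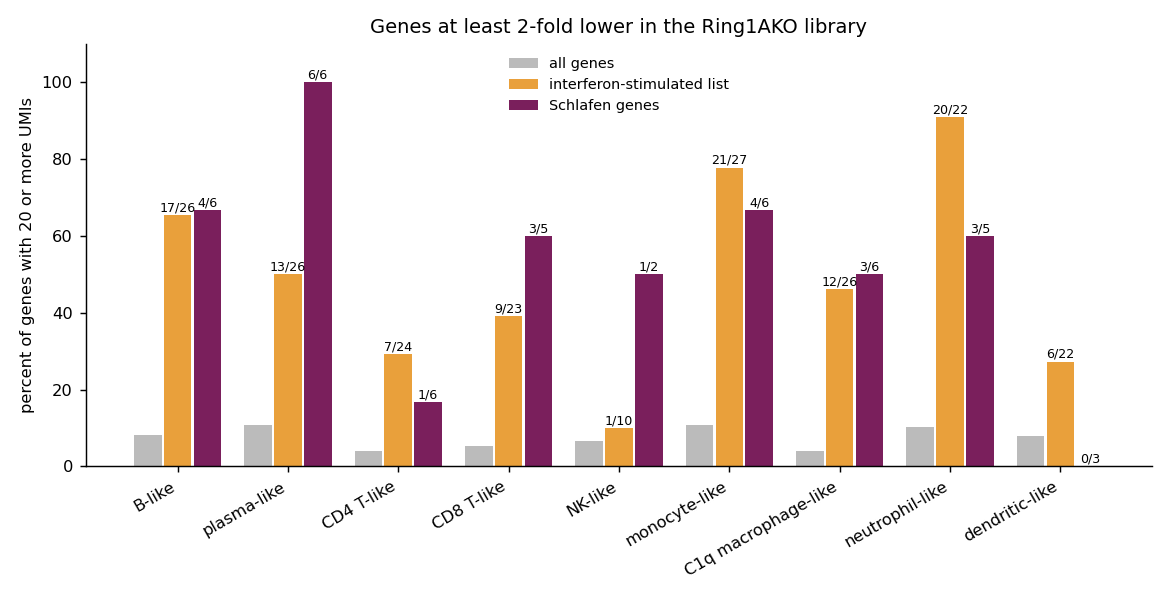
Percent of genes with at least 20 UMIs that were at least 2-fold lower in the library labelled Ring1AKO, by class, for all genes (grey), the interferon-stimulated list (orange) and the Schlafen genes (purple). The numbers over the bars are genes lower of genes counted. The list reaches 20 of 22 in neutrophil-like cells and the members 3 of 5, Slfn5 included. In dendritic-like cells the members are at 0 of 3.

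Of 13 genes of the interferon receptors and their signalling, 4 were at least 2-fold lower and 1 higher in neutrophil-like cells, beside 10.2% and 5.45% of all genes. Stat2 (46 to 15 UMIs, -2.07), Irf1 (307 to 101, -2.05) and Irf9 (79 to 53, -1.02), which encode transcription factors of the pathway, were among the lower ones. Irf3, a factor that induces type I interferon, had 7 and 21 UMIs (1.14, -0.15 to 2.61). The receptor chains were closer to WT, with Ifnar1 at -0.85, Ifnar2 at 0.12, Ifngr1 at -0.47 and Ifngr2 at 0.38. In monocyte-like cells 5 of the 13 were at least 2-fold lower (10.8% of all genes) and all 13 were below 0, while none of the 13 reached 2-fold in dendritic-like cells.

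The genes most like each member were ranked by Pearson's r over 18 values of log2(CPM + 10), 1 for each class and library. The 18 points share libraries, depth and free RNA, so r describes them and no p is given. Slfn1 was closest to Rtp4 (0.92), Oas3 (0.90) and Tmco6 (0.90), Slfn2 to Rbms1 (0.97), Zeb2 (0.97) and Sdcbp (0.96), and Slfn4 to Tlr4 (0.97), Hcar2 (0.97) and Steap4 (0.96). Slfn5 was closest to Ube2l6 (0.94), E230029C05Rik (0.92) and Timm10b (0.91), Slfn8 to Parp14 (0.90), Plec (0.88) and Gzf1 (0.88), and Slfn9 to Gbp3 (0.85), Fcho2 (0.80) and Specc1l (0.79). Among the members r was highest between Slfn1 and Slfn4 (0.81) and between Slfn2 and Slfn8 (0.73), and was -0.06 between Slfn4 and Slfn9.

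Genes next to the cluster were read in the same cells. In neutrophil-like cells the processed transcript AI662270, which lies between Slfn3 and Slfn14, had 38 and 52 UMIs and a ratio of 0.00 (-0.63 to 0.65), and Ap2b1, a subunit of the clathrin adaptor beyond the cluster, had 45 and 51 UMIs (-0.27, -0.88 to 0.34). On the other side Rffl, a ubiquitin ligase gene, had 40 and 31 UMIs (-0.82, -1.54 to -0.10). Gm20234, antisense to Slfn2, had 13 and 8 UMIs (-1.15, -2.63 to 0.23). In monocyte-like cells Rffl had 346 and 149 UMIs (0.79, 0.50 to 1.07), AI662270 1039 and 233 (-0.16, -0.37 to 0.05), Ap2b1 473 and 99 (-0.26, -0.58 to 0.06), and Rad51d 26 and 5 (-0.38, -2.12 to 1.03). The intervals of these neighbours lay above those of Slfn5 in both classes, except for Rad51d in monocyte-like cells, whose interval overlapped that of Slfn5. Slfn5 chose the family by its low neutrophil value, so this says little of the neighbours. In neutrophil-like cells all of their intervals overlapped that of Slfn2 (-0.68, -0.81 to -0.56). In monocyte-like cells Rffl lay above Slfn2 (-0.12, -0.18 to -0.06) and the others overlapped it.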

How the data were processed

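The 2 libraries of 3′ single-cell RNA were analysed, 1 per condition. The authors deposited raw, unfiltered UMI counts per gene and barcode, the unit being counts with no normalization. The study's methods name CellRanger-count with mm10, the matrix header names Cell Ranger 4, and the submitters' processing notes name Cell Ranger 6.0.2 and mm39. Coordinates were therefore taken from GENCODE mouse release 21 (GRCm38) by gene identifier, of which 99.6% matched. The 74414511 and 81862096 UMIs were read with Python 3.11.15, numpy 2.4.6 and scipy 1.17.1.

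A cell joined the class with most of its 8 markers detected, at least 3 and no tie. T cells were split by Cd4 and by Cd8a and Cd8b1, and C1q macrophage-like cells needed 2 of 3 C1q genes. No doublet caller was run. CPM is the summed UMIs of a gene over those of a class, and ratios carry no pseudocount. Ratios have exact conditional intervals, levels exact Poisson intervals and shares exact Clopper-Pearson intervals, all at 95% and for counting error only. UMIs of 1 pool are not independent of its mice, so no test was made between libraries. A gene counted as lower or higher at 2-fold if both libraries together held at least 20 UMIs, and a count of 0 stood at a floor of 3 UMIs per library, with no ratio where both counts were 3 or fewer. Cell-free barcodes had fewer than 100 UMIs. Ratios and intervals were checked on simulated independent Poisson counts, the model that the intervals assume. That check does not cover UMIs clumped in single cells. Alternatives changed the cell filters, the gate, the denominator, the correction for free RNA, the fold and the thinning. The members and lists were chosen with earlier results of these data known. Named genes were the members, other Schlafen genes and neighbours, the 3 genes most like each member with at least 200 UMIs, the 3 lowest and 3 highest of the interferon lists in neutrophil-like cells, and Ring1. Some genes of these sets are not reported here. Other genes named, and the background classes, were chosen after their values were seen.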

Additional observations from a re-analysis of the deposited data

Results flagged for a closer look

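Members were also counted in cells of other gates that no comparison above used, and 7 levels with at least 20 UMIs stood above the cell-free level of the same library by their intervals, 5 of them in WT. Slfn9 had 61.1 CPM (42.8 to 84.6, 36 UMIs) in 28 epithelial-gated cells, against 1.54 CPM among cell-free barcodes, and its UMIs lay in 6 of those cells, 23 of them in 1 cell. Slfn5 had 67.4 CPM (49.0 to 90.5, 44 UMIs) in 81 stromal-gated cells and 65.2 CPM (43.3 to 94.2, 28 UMIs) in 39 plasmacytoid dendritic-gated cells, against 28.5 CPM, and 1 cell of the latter held 16 of the 28. Slfn8 had 30.3 CPM (22.2 to 40.4, 46 UMIs) in 269 innate lymphoid-gated cells, against 14.6 CPM. In the library labelled Ring1AKO the same counts were 0, 16, 0 and 13 UMIs in 9, 64, 22 and 210 cells, and these differences were not tested. In T-gated cells outside the CD4 and CD8 classes Slfn8 had 22.6 CPM in WT (18.01 to 28.04, 83 UMIs) and 10.3 CPM in the library labelled Ring1AKO (7.58 to 13.6, 48 UMIs), against 14.6 and 5.68 CPM. Slfn1 had 11.8 CPM (8.88 to 15.3, 55 UMIs) in those cells of the library labelled Ring1AKO, against 6.02 CPM.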

How the results depend on the processing

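The Slfn5 ratio in neutrophil-like cells stayed between -4.70 and -3.38 under its 14 alternatives, all within the interval of the reported value. That value chose the family and the alternatives largely reuse the same cells, so this shows only how little the processing moved it. The 25 pairs at least 2-fold lower became 12 of 31 without cells holding 3 markers of another class, 11 of 27 with at least 100 UMIs and 16 of 36 without cells holding 2 plasma markers, where fewer pairs had enough UMIs. After the cell-free profile was subtracted 11 of 33 were lower, and in neutrophil-like cells 33.2% of all genes were. That setting left out the B-like and plasma-like cells, which held 4 and 6 of the 25. For the counts of 11 of 27, 16 of 36 and 11 of 33 the share of all genes is not given by class. How far these counts stood above such shares is therefore not known. The 20 of 22 interferon-stimulated genes lower in neutrophil-like cells became 11 with at least 100 UMIs. Fewer genes of the list reached that limit, and of those that did only Bst2 was not at least 2-fold lower. The share of all genes lower there, 10.2%, became 24.1% at a fold of 1.5 and 33.2% after the cell-free profile was subtracted, and the cause of the latter was not tested. The thinned share of WT neutrophil-like cells with a Slfn5 UMI, 7.83%, was 15.4% at 2000 UMIs and 17.8% without thinning. Of 535 other ratios under alternatives 490 stayed within their interval, 43 moved out of it and 2 that had been at least 2-fold lower changed sign. Those 2 were Slfn5 in plasma-like cells, 0.16 as a mean over cells, and Slfn4 in C1q macrophage-like cells, 0.40 after the cell-free profile was subtracted. No paired analysis was possible because there was 1 library per condition, and no replicate could be left out for the same reason. Counts under 20 UMIs limited the low members in small classes.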

Other observations

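Over all kept cells the 6 members were lower in the library labelled Ring1AKO, with Slfn5 at 43.8 and 10.95 CPM (-2.002, -2.12 to -1.89), Slfn4 at 23.6 and 5.38 CPM (-2.13, -2.30 to -1.97) and Slfn2 at 399 and 181 CPM (-1.14, -1.17 to -1.11). The Slfn2 ratio of the whole library was thus further from 0 than in 8 of its 9 classes, where it lay between -0.68 and -0.09. Monocyte-like cells, which held the highest Slfn2 level, made up 13.1% of WT cells and 2.86% of the others, and B-like cells, with a low level, 19.8% and 43.9%. The part of these class shares in the Slfn2 ratio of the whole library was not tested.

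The remaining Schlafen genes were near the limit of detection. Slfn3 had 57 UMIs in WT cells and 38 in the others, 0.918 and 0.547 CPM. Over the 9 classes and both libraries Slfn14 had 2 UMIs and Slfnl1, which lies on chromosome 4, had 0. Among T-gated cells with neither or both of Cd4 and Cd8, or with Trdc, Slfn9 had 3.54 and 3.64 CPM.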
